A study of Rattus norvegicus with 12 samples.

Results

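Extrachromosomal circular DNA (eccDNA) in Mipep, Pkd2 and Laptm4b, by annotation of exons and introns, was examined across 12 Circle-seq libraries of rat back skin. Circle-seq removes linear DNA by exonuclease and sequences the circles that remain. The genes were chosen by presence: each holds a circle with reads in all 12 libraries. This uses the measured values, so that this presence is given as a description and carries no test. The annotation places 32 of the 228353 listed eccDNA in these genes, of which 27 are intronic and 5 touch an exon. Mipep holds 16 of them, Pkd2 8 and Laptm4b 8.

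All libraries came from wild-type rats of the SD (Sprague Dawley) strain, 4 from each group. Control skin was untreated, and its sampling time is not stated. The group named 5 Gy x2 received 2 weekly electron beam fractions of 5 Gy on the back, and the group named 5 Gy x4 received 4 such fractions, with skin taken on day 7 after the last fraction. More fractions therefore also mean a later sampling time, and dose and time cannot be told apart. Whether the 4 libraries of a group stand for 4 animals is not stated, so the p-values below measure the spread between libraries, which may be partly technical. In bulk skin, fewer cells with a circle and fewer circles per cell cannot be told apart.

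Most eccDNA of normal tissue are short, and many have lengths of 1 or a few nucleosomes with their linker. In sequencing data a circle is recognised from split reads, which cross the junction where its ends are joined, and from discordant read pairs, whose mates point away from each other across that junction. Mipep encodes the mitochondrial intermediate peptidase, which trims the leader of imported precursor proteins in the mitochondrial matrix. Pkd2 encodes polycystin-2, a cation channel of the primary cilium and endoplasmic reticulum that is mutated in autosomal dominant polycystic kidney disease. Laptm4b encodes a membrane protein of late endosomes and lysosomes. The circles were read from genomic DNA and say nothing of the expression of these genes.

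Supporting reads, the sum of split reads and discordant pairs, ran from 34499 to 397674 per library over the eccDNA list, and the number of circles from 3601 to 46163, while the total reads sequenced are unknown. Control libraries held 3601 to 10389 circles, 5 Gy x2 libraries 6326 to 28757 and 5 Gy x4 libraries 20124 to 46163. Every 5 Gy x4 library therefore listed more circles than any control library. Supporting reads overlapped between these groups, with 34499 to 192858 in control and 181132 to 323201 in 5 Gy x4.

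The circle of Mipep found in all libraries spans chr15:41100423-41102982 (rn6), 2560 bp, in an intron. It was supported by 196, 60, 80 and 105 reads in control replicates 1 to 4. In the 5 Gy x2 replicates it had 64, 40, 120 and 12 reads, and in the 5 Gy x4 replicates 100, 86, 50 and 39. The 3 groups overlapped, with the highest value in control replicate 1 and the lowest in 5 Gy x2 replicate 4.

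The circle of Pkd2 spans chr14:6615218-6616717 (rn6), 1500 bp, also intronic. Its reads numbered 36, 123, 57 and 75 in control, 129, 15, 80 and 27 in the 5 Gy x2 replicates, and 51, 78, 69 and 186 in 5 Gy x4. The highest value was that of 5 Gy x4 replicate 4, the lowest that of 5 Gy x2 replicate 2, and the groups overlapped.

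The circle of Laptm4b spans chr7:72946522-72946985 (rn6), 464 bp, again in an intron. It had 54, 42, 78 and 53 reads in control, 101, 41, 25 and 27 in the 5 Gy x2 group, and 43, 70, 21 and 62 in the 5 Gy x4 group. Here the highest value, in 5 Gy x2 replicate 1, and the lowest, in 5 Gy x4 replicate 3, both belonged to irradiated skin.

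**Figure D1:**
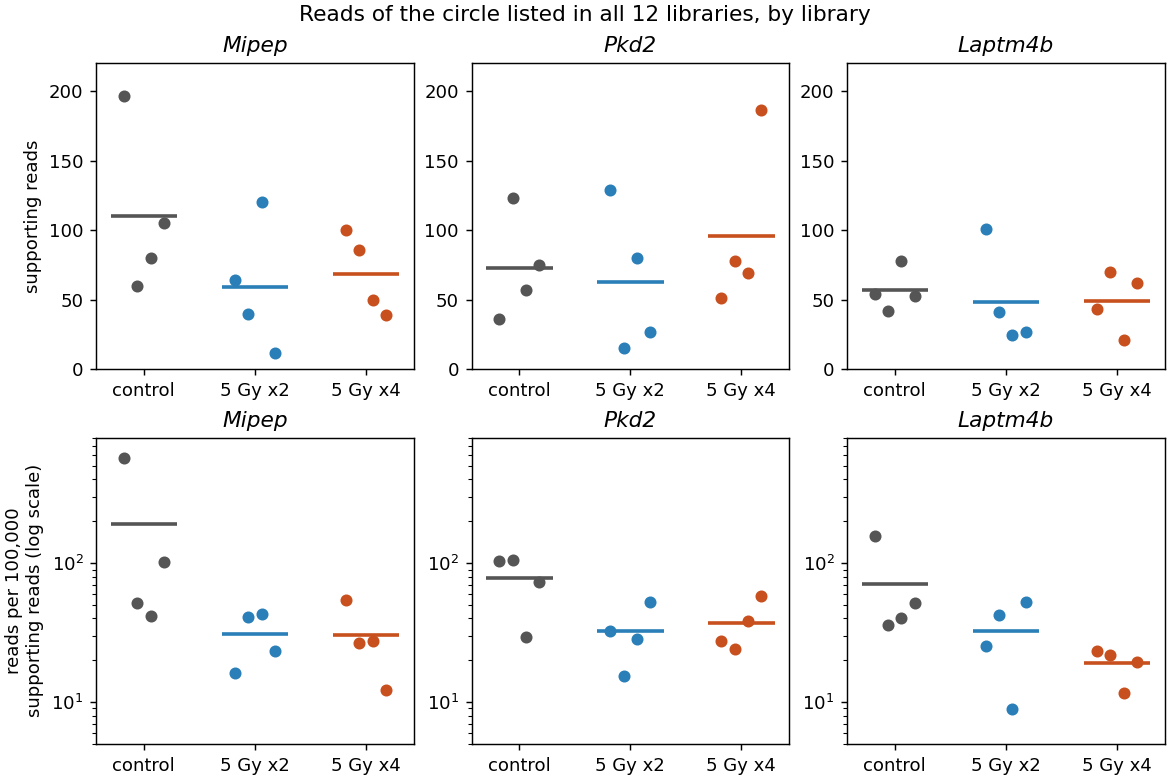
Supporting reads of the circle of each gene listed in all 12 libraries (upper row, linear axis) and the same reads per 100000 supporting reads of the library (lower row, log axis). Each point is 1 library and each bar the mean of 4; the raw reads of the 3 groups overlap for all 3 genes, and in the lower row the Laptm4b points of 5 Gy x4 lie below all control points.

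Only 10 of the listed eccDNA reached all 12 libraries. Outside the mitochondrial chromosome 4 of these lay in genes, and the remaining gene was Apoo, a subunit of the cristae organising complex of mitochondria, with a circle of 31295 bp. Just outside the rule stood 11 genic circles present in 11 libraries, among them those of Arhgef28, Calr3, Cnga3, Lrrc8c, Mmp20 and Tm6sf1. The circle of Mmp20, the enamel matrix metalloproteinase, had 6 to 58 reads where present and was absent from 5 Gy x2 replicate 2. The lowest values just inside the rule were 12 reads for Mipep, 15 for Pkd2 and 21 for Laptm4b, so that reads per library on both sides of the threshold overlapped.

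The calls merged into each of these 3 circles rested almost wholly on discordant pairs. A call is the circle as detected in 1 library, with its own ends and reads. For Mipep 14 of 1695 supporting reads over all calls were split reads (0.826%), all in control replicate 3. For Pkd2 20 of 1111 were split reads (1.80%), all in 5 Gy x2 replicate 3, and for Laptm4b 1 of 617 (0.162%), in 5 Gy x4 replicate 4. In each gene 11 of the 12 libraries thus had no split read across the junction.

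Over the calls of all listed eccDNA, 79.9% of supporting reads were split reads and 3.56% of calls had none. Circles found in several libraries differed from that: among the 1256 eccDNA present in at least 4 libraries whose calls could be read, the median share of split reads was 22.1%, and 121 of them (9.63%) lay under 2%, the 3 members among them. Other circles present in all 12 libraries fell on both sides. At chr7:142066301-142067188 (rn6) and chr17:55374695-55375511 (rn6), both between genes, the share was 0.256% and 0.685%, and 11 of 12 libraries had no split read. The circle at chr3:32684-33068 (rn6), also between genes, had 99.8% split reads. The shares describe kinds of support and were not tested.

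The ends of the calls differed between libraries. Laptm4b was the most uniform: 10 of its 12 calls began at 72946585 or 72946586, whereas the 12 ends all differed and covered 127 bp. The calls were 273 to 462 bp long, shared 249 bp, and overlapped by at least 50% of both in 66 of 66 library pairs. The calls thus had a nearly fixed left end and a variable right end. In 11 of 12 libraries no split read placed these ends at a junction. The call with the 1 split read, in 5 Gy x4 replicate 4, began at 72946522.

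Pkd2 showed a looser form of the same picture. Of its 14 calls, 11 began within 60 bp of the leftmost start, while the ends covered 836 bp and lengths ran from 503 to 1497 bp. All calls shared 147 bp, and 52 of 66 library pairs overlapped by at least 50% of both.

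The Mipep circle was a union of calls with no base common to all. Its 20 calls had 20 different starts over 1150 bp and ends over 1580 bp, with lengths of 960 to 2355 bp. In 7 libraries 2 or 3 calls fell into it. The call of control replicate 3, at 41100423-41101402, and that of 5 Gy x4 replicate 3, at 41101573-41102963, did not overlap at all. Presence in all 12 libraries therefore means here that each library had a call inside the 2560 bp, not that the same junction recurred.

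**Figure D2:**
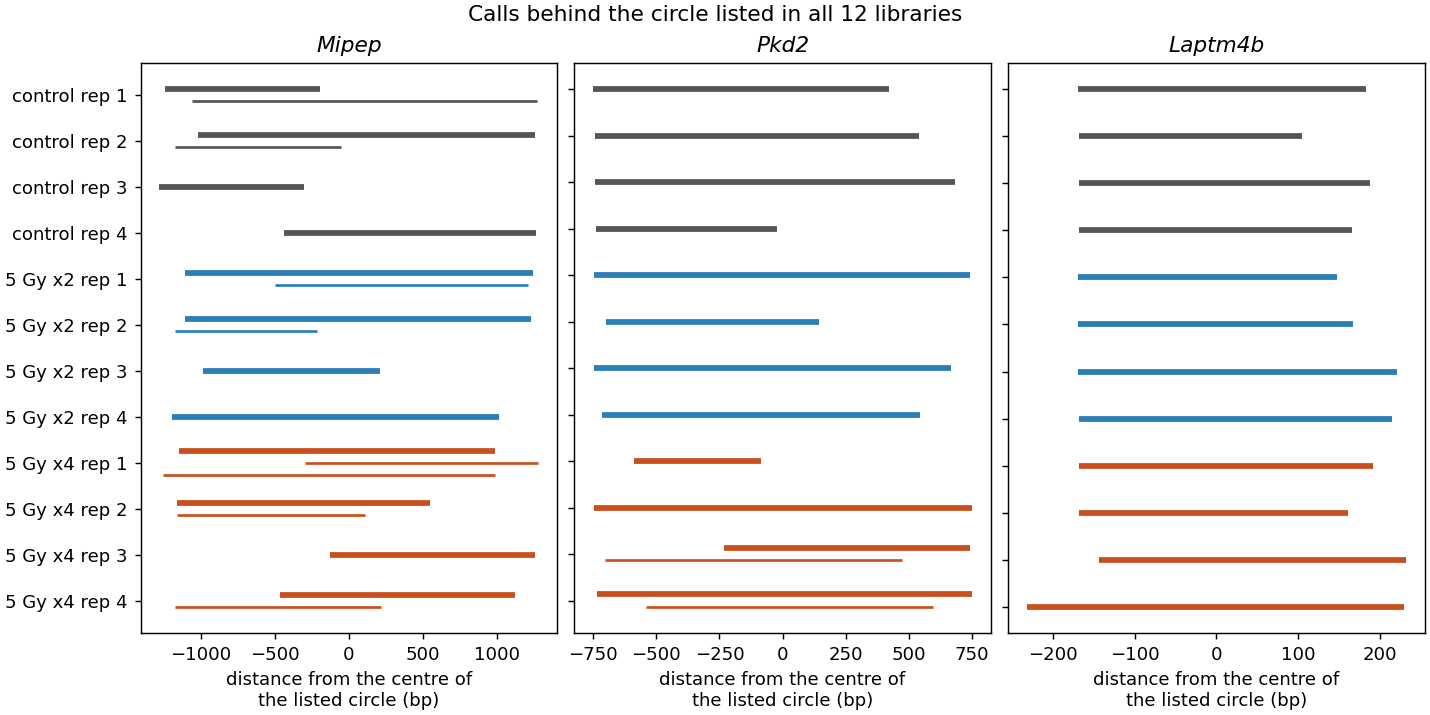
Calls behind the circle listed in all 12 libraries for Mipep, Pkd2 and Laptm4b, placed by distance in bp from the centre of the listed circle, 1 line per library. Thick lines are the call whose reads stand in the count table and thin lines further calls of the same library; left ends line up for Laptm4b and mostly for Pkd2, and the 20 Mipep calls are spread over the whole span.

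End positions varied likewise among the 1256 eccDNA in at least 4 libraries, with a median range of 107 bp for starts and 128 bp for ends. In 65 of them (5.18%) both ranges were at most 2 bp. The start range of Laptm4b, 88 bp, lay below that median, and those of Pkd2, 517 bp, and Mipep, 1150 bp, above it. The 3 circles also differ in length, which bounds the range their ends can take.

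**Figure D3:**
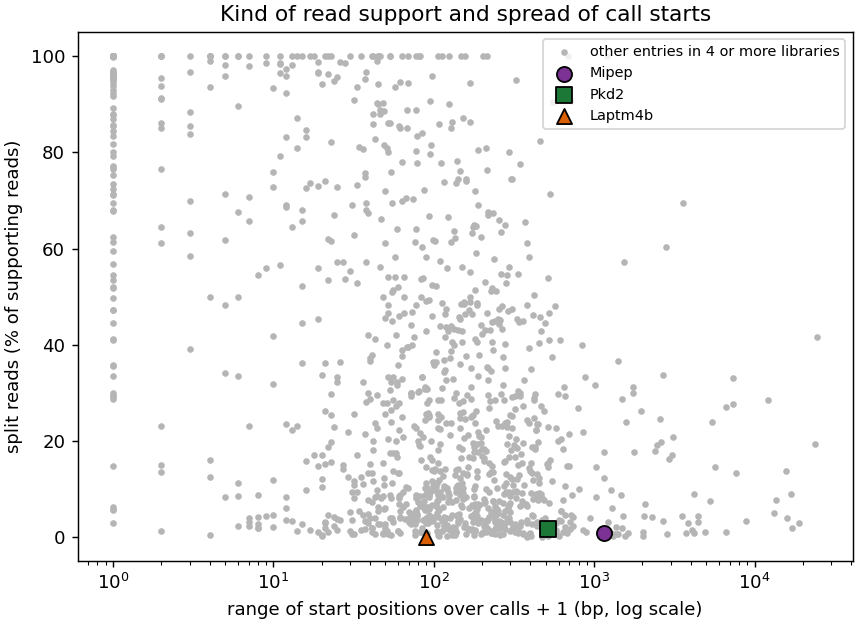
Split reads as a percentage of supporting reads against the range of start positions over calls (bp, plus 1, log axis) for the 1256 eccDNA present in at least 4 libraries. Each grey point is 1 eccDNA; Mipep at 0.826%, Pkd2 at 1.80% and Laptm4b at 0.162% lie along the bottom edge.

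Reads lay deep over the 3 regions, as over other circles found in all 12 libraries. Mean depth over the Laptm4b call was 546, 713, 772 and 643 in control, 821, 336, 342 and 188 in the 5 Gy x2 group, and 502, 626, 495 and 334 in the 5 Gy x4 group. Over the Mipep call it was 566, 172, 234 and 145 in control, 239, 359, 444 and 137 in the 5 Gy x2 group, and 404, 450, 415 and 351 in the 5 Gy x4 group. Over the Pkd2 call it ran from 142 to 353 in control, from 137 to 285 in 5 Gy x2 and from 221 to 281 in 5 Gy x4. For each gene the groups overlapped.

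Set against the median depth of all calls of the same library, these depths were 13.4 to 166 times that median for Laptm4b, 3.02 to 139 times for Mipep and 2.95 to 86.7 times for Pkd2. Control replicate 4 gave the lowest value in each gene; its own median call depth was 48.2. In that library the Pkd2 call was deeper than 84.8% of calls, the Mipep call deeper than 85.5% and the Laptm4b call deeper than 98.6%. Depth of this order was not particular to the members. Over the 141 calls of 12-library eccDNA, 46 of them of the members, the median was 258, or 41.2 times the library median. Over those of the members alone it was 339, or 55.5 times. The intergenic circle at chr3:32684-33068 had a median depth of 1175, and the Apoo circle 65.8.

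The single-library circles of the 3 genes had another kind of support. Of the 32 entries 24 were found in 1 library only, and 18 of these were 330 to under 420 bp long, with a median of 365 bp. They had 1 to 32 reads, with a median of 4. Each had at least 1 split read, as had all 219422 eccDNA found in 1 library. Whether the listing requires this is not stated. Of the 24, 22 had split reads alone, so that 96.5% of their support was split reads. Their mean depth had a median of 4.24, or 0.766 times the library median, and was under 15 in 21 of 24.

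All 219422 eccDNA found in 1 library were alike in this respect, with a median length of 360 bp, 93.4% split reads and a median depth of 4.62. Over all entries the support differed with the number of libraries. The share of split reads was 51.7% in eccDNA of 2 or 3 libraries and 23.3% in those of 4 to 11, and the median depth was 11.4 and 93.7. In the 9 eccDNA of 12 libraries whose calls could be read, the 3 members included, the share was 39.0% and the median depth 258. The share of split reads was thus lower with more libraries up to 11. At 12 libraries, 3260 and 1135 of the 4646 split reads came from the intergenic circles at chr3:32684-33068 and chr18:4696251-4696311 (rn6). The others in that class had 0.162% to 8.42% split reads. Calls with no split read made up 0% in eccDNA of 1 library, 29.3% in those of 2 or 3, 53.1% in 4 to 11 and 73.8% in 12. These shares and depths are a description with no test.

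All 5 entries that touch an exon were single-library circles: 2 in Mipep, 1 in Pkd2 and 2 in Laptm4b, of 360 to 402 bp and 1 to 7 reads. The longest single-library circle was the Mipep circle at chr15:41105806-41106509 (rn6), with 704 bp, 7 split reads and 4 discordant pairs in 5 Gy x4 replicate 1. The best supported was the Pkd2 circle at chr14:6625439-6625716 (rn6), with 278 bp and 32 split reads in control replicate 3, at a depth of 211. The other one with a depth over 100 was a Mipep circle of 374 bp in 5 Gy x4 replicate 4, inside the span of the circle found in all libraries, with 17 split reads and a depth of 231.

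Single-library circles of the 3 genes numbered 1, 0, 1 and 0 in control, 2, 4, 2 and 1 in the 5 Gy x2 group, and 3, 5, 3 and 2 in the 5 Gy x4 group. Every 5 Gy x4 library had more than any control library, as it had for the number of all listed circles. Per 10000 circles of the library the group means were 0.762 ± 0.992 (SD, n = 4) in control, 1.19 ± 0.376 with 5 Gy x2 and 1.03 ± 0.295 with 5 Gy x4. On that scale the groups overlapped.

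Mipep and Pkd2 had further circles in several libraries. A second Mipep intronic circle, at chr15:41166832-41167698 (rn6), 867 bp, was found in 7 libraries, among them all 4 of control. It had 28, 24, 180 and 34 reads in control, 22 and 12 in 5 Gy x2 replicates 1 and 2, and 40 in 5 Gy x4 replicate 2. It was not listed in the other 5 libraries, all from irradiated skin. This difference in presence was not tested, and how many recurrent circles have such a pattern was not counted. Recurrent circles in general took a lower share of reads in irradiated skin, with median ratios to control of 0.342 in 5 Gy x2 and 0.215 in 5 Gy x4. Those ratios measure reads and not presence. The support of the 867 bp circle resembled that of the circle in all libraries, with 4 split reads of 340 (1.18%) and depths of 27.3 to 93.5.

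A second Pkd2 circle, at chr14:6625055-6625716 (rn6), 662 bp, was listed in 4 libraries with 30 reads in control replicate 4, 10 in 5 Gy x2 replicate 4, and 46 and 64 in 5 Gy x4 replicates 3 and 4. Split reads made up 20.0% of its support. A Mipep circle of 308 bp at chr15:41090645-41090952 (rn6) was listed in 2 libraries, with 1 read in control replicate 1 and 18 in 5 Gy x2 replicate 3, all of them split reads. The last 2 entries, a Mipep circle of 1388 bp in 6 libraries and a Pkd2 circle of 893 bp in 4, share their left ends with the circles found in all libraries. Of the calls behind the latter, 5 of the 20 Mipep calls and 3 of the 14 Pkd2 calls were listed in these entries as well, so that the same reads stand under both entries. Split reads made up 2.57% of the support of the 1388 bp circle and 13.1% of that of the 893 bp circle. Over the 4 member circles of 4 to 11 libraries, 16 of 21 calls had no split read and the median depth was 133.

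Changes with irradiation were tested first on the reads, in edgeR's quasi-likelihood test over the 1258 eccDNA present in at least 4 libraries. None of the 3 circles passed an adjusted p of 0.05 in any comparison, and the rule that chose them fixed only that each library had a read. Log2 changes in 5 Gy x2 against control were -0.70 for Mipep (SE 2.21), -0.15 for Pkd2 (SE 2.22) and 0.10 for Laptm4b (SE 2.28). In 5 Gy x4 against control they were -0.41 (SE 2.20), 0.64 (SE 2.22) and 0.13 (SE 2.28). Adjusted p was at least 0.998 throughout, and with errors of this size this fit could not have seen a change of severalfold in either direction. The fit shares its estimate of spread over all 1258 eccDNA, so these errors are not those of the 3 circles alone.

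The same test called 0 of the 1258 eccDNA in 5 Gy x2 against control (0%), where 168 had an unadjusted p under 0.05 and DESeq2 called 5. It called 1 in 5 Gy x4 against control (0.0795%) and 1 in 5 Gy x4 against 5 Gy x2 (0.0795%). Log2 changes of the 3 circles between the irradiated groups were 0.29 for Mipep (SE 2.20), 0.79 for Pkd2 (SE 2.23) and 0.03 for Laptm4b (SE 2.28). The direction depends on the scaling: the median log2 change of all tested eccDNA in 5 Gy x4 against control was -0.49 with TMM factors and -2.16 with library size alone. With library size alone the Pkd2 change in that comparison was -1.07 and the Laptm4b change -1.90.

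As a share of the library, each circle was lower in irradiated skin on average, and so were most other recurrent circles. Mipep took 191 ± 253 reads per 100000 supporting reads in control, 30.9 ± 13.2 with 5 Gy x2 and 30.2 ± 17.5 with 5 Gy x4 (SD, n = 4). The control mean rests on replicate 1, with 568 per 100000 (95% Wilson interval 494 to 653), against 51.3, 41.5 and 102 in the other 3. Without that library the ratio of 5 Gy x4 to control was 0.465 instead of 0.158, and that of 5 Gy x2 to control 0.477 instead of 0.162. The exact permutation p was 0.0857 for 5 Gy x4 and 0.0571 for 5 Gy x2 with all libraries. The groups overlapped in both comparisons.

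Pkd2 took 78.0 ± 35.6 reads per 100000 in control, 32.3 ± 15.4 with 5 Gy x2 and 37.0 ± 15.3 with 5 Gy x4 (SD, n = 4). The ratios to control were 0.414 and 0.475, each with an exact permutation p of 0.0857. Control replicate 3, at 29.6 per 100000, lay among the irradiated libraries.

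Laptm4b took 71.1 ± 57.3 reads per 100000 in control, 32.3 ± 19.2 with 5 Gy x2 and 19.0 ± 5.20 with 5 Gy x4 (SD, n = 4). All 4 libraries of 5 Gy x4, from 11.6 to 23.3, lay below all 4 of control, from 35.9 to 157. The ratio was 0.267 with a two-sided exact permutation p of 0.0286, the smallest that 4 libraries against 4 allow, and an adjusted p of 0.536 over the 1258 eccDNA. Of those, 64 (5.09%) were lower in 5 Gy x4 with groups that did not overlap. Without control replicate 1 the ratio was 0.446.

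The median ratio of the 1258 eccDNA was 0.342 in 5 Gy x2 and 0.215 in 5 Gy x4 against control. These medians lay below the ratios of Pkd2 and Laptm4b and above those of Mipep. The rule gave the 3 circles reads in every library, whereas 190 and 181 of the 1258 had none in 1 of the groups compared. This placing is therefore partly fixed by the rule. The other circles of all 12 libraries had ratios of 0.271 to 1.71 in 5 Gy x2 and 0.206 to 1.08 in 5 Gy x4. No eccDNA had an adjusted p under 0.05 by the exact permutation test, though 40 and 67 had an unadjusted exact p below it. Raw reads of the 3 circles, not scaled, had ratios of 5 Gy x4 to control of 0.624 for Mipep, 1.32 for Pkd2 and 0.863 for Laptm4b. Between 5 Gy x4 and 5 Gy x2 the ratios of the shares were 0.976, 1.15 and 0.588, with exact permutation p of 0.971, 0.657 and 0.257.

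**Figure D4:**
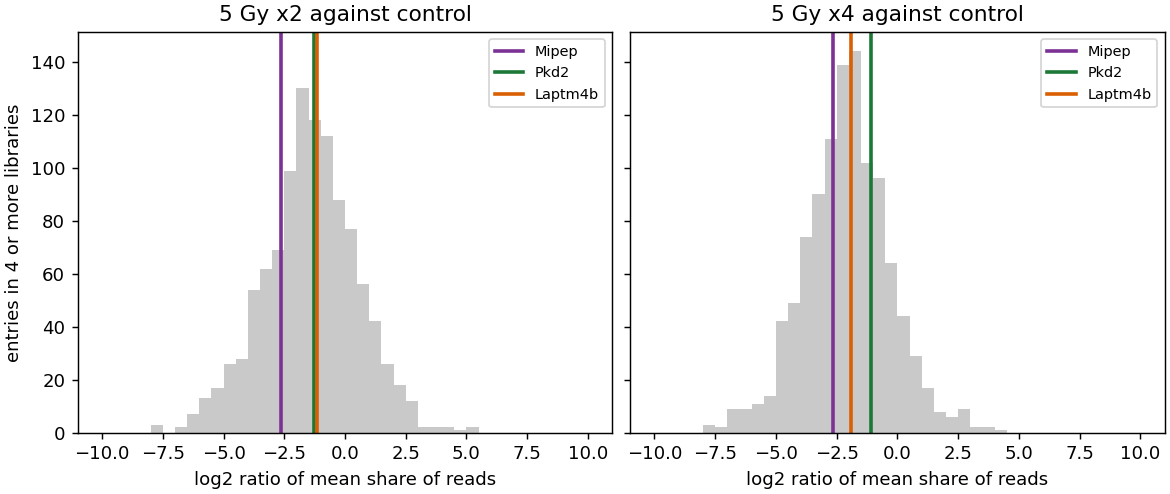
Log2 ratio of the mean share of supporting reads to control over eccDNA present in at least 4 libraries, for 5 Gy x2 (1068 with reads in both groups) and 5 Gy x4 (1077). Bars count eccDNA and vertical lines mark the 3 circles, which lie within the bulk of the distribution and, like most of it, below 0.

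Mipep had 5, 3, 3 and 2 circles in control, 2, 6, 3 and 2 in the 5 Gy x2 group, and 3, 5, 3 and 2 in the 5 Gy x4 group, a mean of 3.25 in each group. With a call listed in 2 entries counted once, and several calls of a library in 1 entry counted apart, the Mipep means were 3.0, 3.5 and 4.0. Pkd2 had 1, 1, 2 and 3, then 3, 2, 2 and 3, then 2 in each of the 4. Laptm4b had 1 in each control library, 1, 2, 1 and 2 in 5 Gy x2, and 2, 3, 2 and 2 in 5 Gy x4.

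All 4 Laptm4b counts of 5 Gy x4 lay above all 4 of control, as did those of 444 of the 1983 genes with at least 12 circle calls (22.4%). The ratio of the group means was 2.25 for Laptm4b, and the median ratio of these genes was 5.5. The rule gives each member at least 1 circle in every library, and all 4 Laptm4b controls hold that circle alone. These numbers are therefore a description. Per 10000 circles of the library, Mipep had 5.51 ± 3.49 in control and 1.03 ± 0.295 in 5 Gy x4 (SD, n = 4), and all 5 Gy x4 libraries lay below all control libraries. Pkd2 had 3.35 ± 3.35 and 0.695 ± 0.296, also without overlap, as had 100 of the 1983 genes in this direction (5.04%). The Pkd2 control mean rests on replicate 4, at 8.33, and was 1.69 without it. With distinct calls in place of listed circles the groups overlapped for both genes. Mipep then had 1.93 in control replicate 3 and 2.26 in 5 Gy x4 replicate 1, and Pkd2 1.06 in control replicate 2 and 1.49 in 5 Gy x4 replicate 4.

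Circles per gene were also fitted over all genes with edgeR's quasi-likelihood test. The member counts include the circle that the rule required in every library, so the fit cannot decide whether they changed. No member passed in any comparison. For 5 Gy x4 against control the log2 change was -1.19 for Mipep (SE 0.63, adjusted p = 0.217), -0.98 for Pkd2 (SE 0.79, adjusted p = 0.428) and -0.06 for Laptm4b (SE 0.89, adjusted p = 0.969). The median over the 1983 genes was 1.11, and 5 genes passed (0.252%). For 5 Gy x2 against control the changes were -0.74, -0.23 and -0.16, and 0 genes passed (0%), against 309 with an unadjusted p under 0.05 and 0 with DESeq2. Between the irradiated groups they were -0.45, -0.75 and 0.10, and 0 genes passed there too (0%), although 85 had a p under 0.05 before adjustment; DESeq2 also called 0. With library size alone the median of all genes was 0.21, and the Mipep change of -2.17 then had an adjusted p of 0.0277. These fits use counts that are not independent of the rule that chose the genes, so the adjusted p of 0.0277 is no support for a change.

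Among genes of related function few had a circle that recurs, as over all genes with a circle. Of 28 other genes of mitochondrial presequence processing and protein quality control 18 had a listed circle, and no single circle reached more than 3 libraries, in Parl, a rhomboid protease of the inner membrane. Of 31 other genes of polycystins, TRPP channels and ciliary transport 27 had a circle, and 1 had a circle in at least 4 libraries. This was Bbs9, a subunit of the BBSome, with 51 entries and 1 circle in 4 libraries. Of 31 other genes of lysosomal membrane proteins 29 had a circle, and 2 had a circle in at least 4 libraries. These were Npc1, the cholesterol exporter, with 5 and Slc38a9, an amino acid sensor, with 6. Over all 13560 genes with a circle, 420 (3.10%) had one in at least 4 libraries.

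Genes of these lists with enough circles to test were Ift88, Ift122, Ift140, Bbs9 and Slc38a9, and 0 of the 5 passed in any comparison. The largest log2 change in 5 Gy x4 against control was that of Ift140, a subunit of the retrograde ciliary transport complex, with 1.94 (SE 1.15, adjusted p = 0.281 in edgeR's quasi-likelihood test). By number of circle calls Mipep ranked 226th of 13560 genes with 39 calls, Pkd2 563rd with 25 and Laptm4b 911th with 19.

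Of the 9 circles whose share of reads followed those of the members most closely across the 12 libraries, 7 lay between genes, as did 304 of the 529 compared (57.5%). Of these 529 eccDNA in at least 6 libraries, the most similar to Mipep was an intergenic circle at chr3:59939019-59939557 (rn6), with a Pearson r of 0.884 on log2 reads per 100000 plus 1. For Laptm4b it was an intergenic circle at chr1:39467934-39470045 (rn6), with r of 0.884. For Pkd2 it was one at chr1:276574679-276575597 (rn6), with r of 0.858, followed by intronic circles of Agpat4 and Vps37b with r of 0.828 and 0.826. Between the members r was 0.691 for Mipep and Laptm4b, 0.485 for Pkd2 and Laptm4b and 0.459 for Pkd2 and Mipep. All shares of a library have 1 denominator, which enters each of these values, and the median r to all 529 was 0.218 to 0.304.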

How the data were processed

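Circular DNA of rat back skin was sequenced in 12 libraries of 3 groups. Per the labels' protocols, plasmid columns and exonuclease digestion enriched the circles, and libraries were made by transposase. The submitters' processing notes name BWA, Picard, bedtools and the build rn6, with no versions. Neither the circle caller nor the merging rule is given in the sources used here. Library tables as deposited hold raw counts of supporting reads per eccDNA, with no normalization by the authors; reads carry no molecular identifiers, so intervals cover counting error only. Where a library had several calls in an entry, its deposited count was that of the last listed call in 296 of 296 cases; 4 entries with call lists of unequal length were left out of the call tables. The classes hconf, conf and lconf are not defined in the files and were not used.

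Members were the entries of type exon or introns whose symbol is Mipep, Pkd2 or Laptm4b; presence was at least 1 read. Members, gene lists and tests were chosen with earlier results of these data known. Reads of 1258 eccDNA in at least 4 libraries, and circles of 1983 genes with at least 12 calls, were each fitted over all 12 libraries in R 4.3.3 with edgeR 4.0.16 (TMM, quasi-likelihood F test, Benjamini-Hochberg, adjusted p of 0.05), and in DESeq2 1.42.0 as an alternative. Shares were compared by two-sided exact permutation of 4 libraries against 4 (70 splits, smallest p 0.0286) in Python 3.11.15 with pandas 2.3.3 and numpy 2.4.6. The tests were checked on simulated data. Named genes were the 3 members, for each the 3 eccDNA in at least 6 libraries with the highest Pearson r, other circles in all 12 libraries, and up to 3 genes per list with circles in most libraries; some genes at 11 libraries and the tested list genes were named after their values were seen. Same-numbered libraries of different groups did not deviate together (12 pairs, r from -0.0652 to 0.0522), so numbers were not taken as pairs. Sequences of the circles are not printed, since no genome of this build was used here.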

Additional observations from a re-analysis of the deposited data

Results flagged for a closer look

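In each group of 4 libraries, the highest or lowest value was compared with its nearest neighbour, as a share of the group's range; chance passes this mark in about 1 of 20 groups, and 54 such tests were made here. Control replicate 1 stood apart for Mipep, with 568 reads per 100000 supporting reads. The same library stood apart for Laptm4b, with 157 reads per 100000. It had the fewest supporting reads of all, 34499, the denominator of both values; its part in them was not tested. 5 Gy x4 replicate 4 stood apart for Pkd2, with 92.4 reads per 10000 circles of the library.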

How the results depend on the processing

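No member passed an adjusted p of 0.05 in the fit of reads under any alternative. In the fit of circles per gene only Mipep in 5 Gy x4 against control did, with library size alone (-2.17). The member counts of that fit include the circle that the rule required, so it cannot decide whether they changed. Signs in the fit of reads turned with the scaling; causes were not tested beyond the construction of each alternative. For Laptm4b in 5 Gy x2 against control the log2 change was -1.13 with library size alone, -1.12 with mitochondrial reads left out, -1.67 with the number of circles as library size, -0.67 with all genic entries summed and -0.031 with the filter of 2 libraries. In 5 Gy x4 against control it was -1.90, -1.92, -2.42 and -1.08 under the first 4 of these, and between the irradiated groups -0.76, -0.80, -0.76 and -0.41, with -0.11 under filterByExpr. For Pkd2 in 5 Gy x4 against control these 4 gave -1.07, -1.08, -1.66 and -0.27, and for Mipep between the irradiated groups -0.035, -0.059, -0.22 and -0.36. In the fit of circles per gene the filter of 2 libraries gave 0.11 for Pkd2 and 0.17 for Laptm4b in 5 Gy x2 and 0.44 for Laptm4b in 5 Gy x4 against control, and library size alone -0.11 for Laptm4b between the irradiated groups.

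Replicate numbers did not pair the libraries: 0 of 12 same-numbered pairs correlated above 0.1, and 1 of 12 libraries correlated best with its own number. With the number as a replicate block, Laptm4b had a log2 change in reads of -0.043 in 5 Gy x2 and -0.0086 in 5 Gy x4 against control, and in circles per gene of 0.0027 in 5 Gy x4. The block left 0 eccDNA called between the irradiated groups in place of 1. An exact permutation by sign flips of same-numbered pairs as a block gave p = 0.125, the smallest such pairs allow, for the Laptm4b ratio of 0.267.

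The number of eccDNA called by reads was 5 in 5 Gy x2, 5 in 5 Gy x4 and 12 between the irradiated groups with DESeq2, which gave an adjusted p to 1220, 439 and 393 eccDNA. With all genic entries summed it was 1, 0 and 0, with all calls of a library summed (chosen after seeing the data) 0 in 5 Gy x4 and 0 between the irradiated groups, and with the filter of 2 libraries 0 between them. The number of genes called by circles in 5 Gy x2 was 8 with library size alone and 6 with filterByExpr, which left 16 genes. In 5 Gy x4 it was 28 and 11 under these, 9 with the filter of 2 libraries and 2 with distinct calls; the latter, like leaving out mitochondrial reads, was chosen after seeing the data.

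For the shares, all genic entries together gave Mipep ratios to control of 0.155 for the 5 Gy x2 group and 0.097 for the 5 Gy x4 group (exact permutation p = 0.0286 each). That sum, like the fit with all genic entries summed, counts 1 Mipep call under 2 entries in control replicates 1 (196 reads) and 3 (80 reads). In no irradiated library was a Mipep call counted so, which lowers these ratios. Scaling per 10000 circles gave 0.131 and 0.113 (exact permutation p = 0.0286 each). The divisor was larger in every 5 Gy x4 library than in any control library, which lowers the ratio of 0.113. These p-values were not adjusted, and how many other eccDNA or genes separate on these scales was not counted. Reads not scaled gave 1.32 for Pkd2 and 0.863 for Laptm4b (exact permutation p = 0.657) in 5 Gy x4 against control, and between the irradiated groups 1.17 for Mipep and 1.01 for Laptm4b. With all calls summed Mipep was 1.35 there, and with all genic entries Pkd2 was 0.704. The Pkd2 sum counts 1 call under 2 entries in control replicate 4, 5 Gy x2 replicate 2 and 5 Gy x4 replicate 1.

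Leaving out 1 library at a time, the log2 change in reads ran from -1.23 to 0.23 for Mipep, -0.37 to 0.36 for Pkd2 and -0.17 to 0.45 for Laptm4b in 5 Gy x2 against control. It ran from -0.71 to 0.42 for Mipep and -0.14 to 0.37 for Laptm4b in 5 Gy x4 against control, and from -0.10 to 0.82 and -0.24 to 0.30 between the irradiated groups. In circles per gene the range was -0.43 to 0.38 for Pkd2 in 5 Gy x2, and for Laptm4b -0.28 to 0.17 in 5 Gy x2, -0.14 to 0.16 in 5 Gy x4 and -0.12 to 0.32 between the irradiated groups. The Laptm4b share ratio in 5 Gy x4 ran from 0.230 to 0.446, where 3 libraries against 4 allow no p below 0.0571. Between the irradiated groups the Mipep ratio ran from 0.716 to 1.17 and the Pkd2 ratio from 0.928 to 1.45. The eccDNA called by reads numbered 0 to 1 in 5 Gy x2 and 0 to 1 between the irradiated groups, both decided by 5 Gy x2 replicate 1. The genes called by circles numbered 0 to 29 in 5 Gy x2 and 0 to 61 in 5 Gy x4; without 5 Gy x2 replicate 4 they were 29 and 61, and without control replicate 3 they were 3 and 13. In 5 Gy x4 the other libraries gave 0 to 8, the lowest without control replicate 2. Depth limits these results: total reads are unknown and each circle has 12 to 196 reads in a library.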
